A study of Mus musculus with 20 samples.

Results

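The genes described here encode the vacuolar proton pump and the nutrient-sensing machinery that sits beside it on the lysosome. They are 39 of the 21315 gene symbols measured, and were taken as every row whose symbol was on a list of the subunits of the vacuolar ATPase (V-ATPase) and its accessory proteins, Ragulator, the Rag GTPases, mTORC1 with its regulators Rheb, TSC1 and TSC2, the folliculin complex, and the transcription factors TFEB, TFE3 and MITF. All 39 symbols were found. The rule itself uses no measured value, although the list was drawn up with earlier results of these data known. Rragb, which stayed below a mean scaled value of 1, was the single member that could not be tested.

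RNA was sequenced from microglia (CD45mid, CD11b+) sorted from the brains of 9-month-old C57BL/6 mice, in 20 libraries. APP-KI mice carry the APP NL-G-F knock-in, in which the App gene holds a humanized Aβ sequence and familial Alzheimer mutations, and they form Aβ plaques. C3aRKO mice lack C3ar1, the receptor for the complement fragment C3a, throughout the body. In 6 libraries, 3 WT C3aR+ and 3 APP-KI C3aR+, the microglia were further sorted on Td-tomato, and all of these mice, controls included, came from a Td-tomato reporter line with a floxed C3ar1 locus. The other 14 libraries held all sorted microglia and came from 3 WT, 3 APP-KI, 3 C3aRKO and 5 APP-KI;C3aRKO mice without that reporter. Males and females were used in about equal numbers. The labels do not say which library came from which sex, nor that each library came from a separate animal, so that p-values measure the spread between these libraries.

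The V-ATPase pumps protons into lysosomes, endosomes and phagosomes, and the low pH that results is what lysosomal hydrolases need. Its V1 sector in the cytosol hydrolyses ATP, and its V0 sector in the membrane carries the protons. The same pump binds Ragulator, which anchors the Rag GTPases. When amino acids are plentiful, a dimer of RagA or RagB with RagC or RagD brings mTORC1 to the lysosome, where Rheb switches it on and the TSC complex holds Rheb in check. Folliculin, with FNIP1 or FNIP2, acts on RagC and RagD, and in that state mTORC1 phosphorylates TFEB, TFE3 and MITF and keeps them out of the nucleus. In microglia, the brain's resident phagocytes, this pathway governs how ingested material is broken down.

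Values are given here on a scaled count scale, in which each library's read counts were divided by their own 75th percentile and multiplied by 35.2. A gene's scaled value is not corrected for its length, and levels of different genes are compared only per kilobase (kb) of exon. Differences are on the log2(scaled value + 1) scale with their standard error (SE), from limma fitted over all genes whose scaled values averaged 1 or more, and a gene was called where the adjusted p was under 0.05. Libraries of C3aR+ microglia held 13939559 to 30388941 reads and the others 42239056 to 76608464.

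Some libraries stood apart. C3ar1 had scaled values of 276, 330 and 340 in WT and of 68.1, 39.9 and 65.7 in C3aRKO libraries. In the libraries labelled WT C3aR+ it had 71.0, 81.2 and 37.6, close to the C3aRKO values, whereas in APP-KI C3aR+ it had 383, 251 and 201. C3ar1 itself therefore moved with genotype in the C3aR+ comparison, and the WT C3aR+ libraries went against their label in this respect, the cause of which was not tested. Among the 14 libraries of all sorted microglia, 4 had reads in only 12387 to 13250 of 21326 rows (APP-KI replicate 4, C3aRKO replicates 1 and 2, APP-KI;C3aRKO replicate 1), APP-KI replicate 5 had reads in 21219, and all others of the 20 in 14888 to 17450. Member calls among the 14 libraries are given below with and without those 4, and the other gene lists only with all 14.

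The summed level of 10 microglial markers was 24405 to 26362 in WT C3aR+ and 17624 to 18703 in APP-KI C3aR+ libraries. Of the 10, 5 were called lower, where 9.71% of all genes were. A sum over 6 markers of border macrophages was 472 to 694 and 178 to 395, with 5 of 6 called lower. The sum over 6 endothelial markers was 109 to 151 and 309 to 528, through Flt1 (10.7 to 22.2 and 155 to 314) and Slc2a1 (61.4 to 70.1 and 139 to 203), while Cldn5 and Ly6c1 stayed at or below 6.78 in both groups. Across all 20 libraries, the sums reached at most 27.1 for neuronal, 403 for astrocyte, 229 for oligodendrocyte, 754 for monocyte and neutrophil, and 68.2 for T and NK cell markers. Of 14 genes induced by tissue dissociation, 2 were called higher and 3 lower in APP-KI C3aR+ microglia, against 13% and 9.71% of all genes. The sum over these 14 was 3526 to 5794 over the 6 libraries. The part of these shifts in the members' values was not tested. In bulk samples, fewer cells of a type and less RNA per cell cannot be told apart.

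Many pump subunit genes, with Rragd, Rragc, Lamtor1, Lamtor4, Fnip2 and Mitf, were higher in C3aR+ microglia of APP-KI than of WT mice. Several of these were also lower in WT C3aR+ than in WT libraries of all sorted microglia, as given below. Of 38 members tested, 18 were called higher in APP-KI C3aR+ than in WT C3aR+ libraries, where 13% of all 12312 genes were, and 1 was called lower, where 9.71% of all genes were. The 18 comprised 5 of 8 genes of the V0 sector, 6 of 8 of the V1 sector, 1 of 2 accessory proteins, 2 of 5 Ragulator genes, 2 of 3 tested Rag genes, Fnip2 of the folliculin complex and Mitf. None of the 6 genes of mTORC1, Rheb and the TSC complex was called by limma, edgeR or DESeq2, and only Rptor among them had an unadjusted p under 0.05, as a lower gene, where 19.7% of all genes did. The median log2 difference was 0.57 over the members and -0.17 over all genes. Under median ratio scaling between libraries these medians became 0.72 and -0.03, and 19 members were called higher and 1 lower. With the groups not overlapping, 18 members were higher and 3 lower, against 17.8% and 25.7% of all genes.

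**Figure D1:**
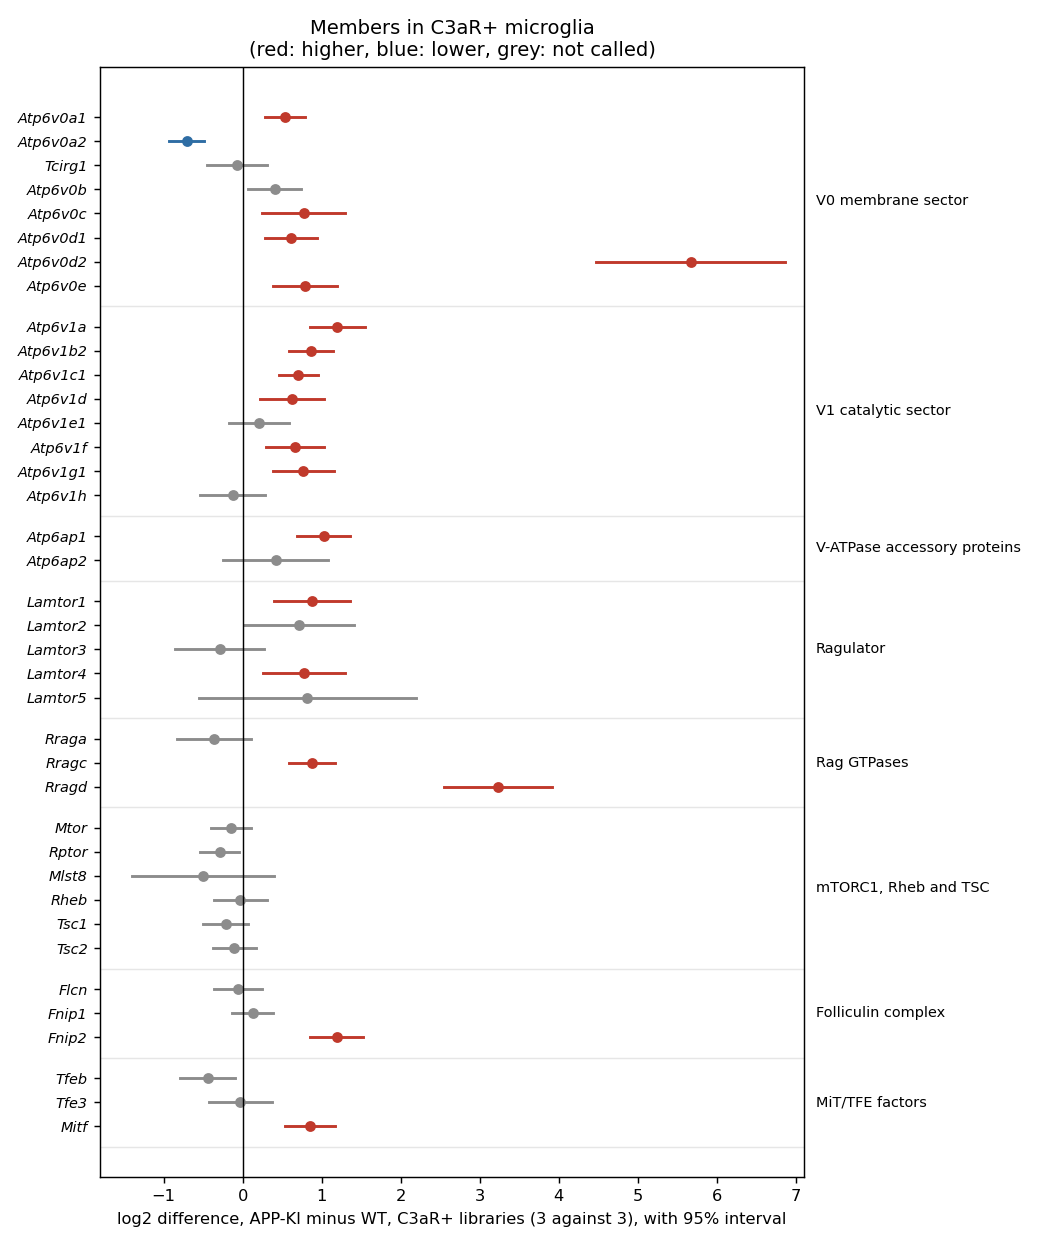
The log2 difference between 3 APP-KI C3aR+ and 3 WT C3aR+ libraries is plotted for the 38 members tested (points, with 95% intervals as lines), grouped by complex. Atp6v0d2 (5.67) and Rragd (3.23) lie far to the right, most V0 and V1 subunits lie between 0.5 and 1.2, and the mTORC1, Rheb and TSC genes lie at or left of 0.

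Atp6v0d2 encodes the d2 form of the V0 subunit that couples the membrane ring to the rotor, and is known from osteoclasts and macrophages. It had scaled values of 0.354, 0.684 and 0.107 in WT C3aR+ and of 33.2, 59.8 and 157 in APP-KI C3aR+ libraries. The WT values rest on 3 to 14 reads each and the APP-KI values on 643 to 2001. The log2 difference was 5.67 (SE 0.53, limma, adjusted p = 0.000148), and 7.34 with a pseudocount of 0.1. Its ubiquitous counterpart Atp6v0d1 had 61.3, 68.1 and 82.0 against 115, 95.3 and 112, a difference of 0.61 (SE 0.15, adjusted p = 0.0166). All APP-KI libraries lay above all WT libraries for both.

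The a subunits, which form the channel for protons and direct the pump to its membrane, did not move together. Atp6v0a1 had 292, 267 and 252 in WT C3aR+ and 370, 375 and 432 in APP-KI C3aR+ libraries, a difference of 0.54 (SE 0.11, adjusted p = 0.00923). Atp6v0a2, the a2 form known from Golgi and endosomes, was the single member called lower. Its scaled values were 232, 243 and 237 against 146, 141 and 147, and it fell by 0.71 on the log2 scale (SE 0.10, adjusted p = 0.00113). Reads of Atp6v0a2 could include an antisense gene that overlaps 9.86% of its exon bases, because the strand setting of the counting is not given in the sources used here. Tcirg1, the a3 form of lysosomes and phagosomes, had 345, 512 and 497 against 366, 441 and 472, a difference of -0.07 (95% interval -0.45 to 0.31, adjusted p = 0.789).

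The proteolipid ring of V0 is built from Atp6v0c and Atp6v0b. Atp6v0c had 82.8, 65.0 and 48.2 in WT C3aR+ and 118, 80.7 and 139 in APP-KI C3aR+ libraries. The groups overlapped, and the difference of 0.77 (SE 0.24, adjusted p = 0.0408) lost its call without WT C3aR+ replicate 2 or 3 or APP-KI C3aR+ replicate 1 or 3. Atp6v0b had 91.4, 111 and 76.5 against 127, 112 and 127, which did not overlap, with a difference of 0.41 that was not called (SE 0.15, adjusted p = 0.0797). Atp6v0e, a small membrane subunit, had 36.3, 44.1 and 34.5 against 81.3, 64.2 and 56.7, and was higher by 0.79 (SE 0.18, adjusted p = 0.0125, lost without WT C3aR+ replicate 3). Atp6v0c has 2 annotated pseudogenes with which its reads could be shared, and an antisense gene overlaps 11.8% of the exon bases of Atp6v0b.

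In the V1 sector, Atp6v1a and Atp6v1b2 make up the hexamer that hydrolyses ATP. Atp6v1a had scaled values of 71.1, 68.2 and 66.0 in WT C3aR+ and of 145, 136 and 201 in APP-KI C3aR+ libraries, a difference of 1.20 (SE 0.16, adjusted p = 0.000754). Atp6v1b2 had 101, 105 and 96.6 against 178, 168 and 211, a difference of 0.87 (SE 0.12, adjusted p = 0.00113). The WT libraries of both genes lay within a narrow range, below every APP-KI library. Atp6v1c1, the C subunit through which V1 is held onto V0, had 142, 160 and 162 against 247, 243 and 270 and was higher by 0.71 (SE 0.11, adjusted p = 0.00182).

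The central rotor and the outer stalks of V1 were represented by Atp6v1d, Atp6v1f, Atp6v1g1 and Atp6v1e1. Atp6v1g1 had 42.6, 43.3 and 43.1 against 94.5, 65.0 and 65.9 and was higher by 0.77 (SE 0.17, adjusted p = 0.0114). Atp6v1f had 31.6, 33.7 and 37.9 against 59.9, 48.0 and 57.2 (0.66, SE 0.17, adjusted p = 0.0187), and Atp6v1d had 38.9, 57.7 and 43.1 against 65.2, 68.0 and 82.7 (0.63, SE 0.18, adjusted p = 0.0331). These last calls were less secure: that of Atp6v1f was lost without WT C3aR+ replicate 1 or 2 or APP-KI C3aR+ replicate 1, and that of Atp6v1d without WT C3aR+ replicate 1 or 3 or APP-KI C3aR+ replicate 2 or 3. Atp6v1e1 (0.20, 95% interval -0.18 to 0.58) and the regulatory subunit Atp6v1h (-0.13, interval -0.54 to 0.29) were not called. Leaving out a single library also ended the call of Atp6v0d1, without WT C3aR+ replicate 1 or 2.

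Atp6ap1, an accessory glycoprotein needed to assemble V0, had 134, 163 and 142 in WT C3aR+ and 284, 254 and 367 in APP-KI C3aR+ libraries, a difference of 1.03 (SE 0.15, adjusted p = 0.00133). Atp6ap2, the prorenin receptor, had 65.8, 71.9 and 55.6 against 147, 55.2 and 78.3, and its difference of 0.42 was not called (95% interval -0.24 to 1.08). A single APP-KI library was high for Atp6ap2, and the groups overlapped.

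Of the Ragulator genes, Lamtor1 encodes the lipid-anchored subunit that wraps around the others. It had scaled values of 36.3, 49.0 and 52.4 in WT C3aR+ and of 112, 78.8 and 67.1 in APP-KI C3aR+ libraries, a difference of 0.88 (SE 0.21, adjusted p = 0.0169, lost without WT C3aR+ replicate 1). Lamtor4 had 22, 42.3 and 35.0 against 60.9, 55.1 and 50.8, a difference of 0.78 (SE 0.23, adjusted p = 0.0396) that kept its call only when WT C3aR+ replicate 2 was the library left out. For both, each APP-KI library lay above each WT library. Lamtor2 (0.71), Lamtor3 (-0.29) and Lamtor5 (0.82) were not called, and Lamtor5, with a scaled value of at most 14.1 in these libraries, had a 95% interval of -0.55 to 2.19. An antisense gene overlaps 18.7% of the exon bases of Lamtor1.

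Rragd and Rragc, the Rag genes called higher, encode the same side of the dimer. Rragd, which encodes RagD, had 3.09, 3.91 and 3.60 in WT C3aR+ and 42.9, 31.2 and 52.4 in APP-KI C3aR+ libraries, a difference of 3.23 (SE 0.31, adjusted p = 0.000152). Rragc, which encodes the closely related RagC, had 75.8, 71.2 and 67.6 against 125, 122 and 151, a difference of 0.88 (SE 0.13, adjusted p = 0.00146). Neither gene's groups came near each other. Rraga, on the other side of the dimer, had 38.8, 40.0 and 39.4 against 25.3, 27.4 and 40.8, a difference of -0.36 (95% interval -0.83 to 0.11, adjusted p = 0.237). Its homolog Rragb was at 1.45 or below in every one of the 20 libraries. An antisense gene overlaps 7.90% of the exon bases of Rragc.

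The genes of mTORC1 and of its direct regulators had log2 differences between -0.51 and -0.03. Mtor, the kinase, had 145, 137 and 148 in WT C3aR+ and 138, 132 and 118 in APP-KI C3aR+ libraries, a difference of -0.15 (95% interval -0.40 to 0.10, adjusted p = 0.348). Rptor, the scaffold Raptor by which mTORC1 binds the Rags, had 420, 424 and 483 against 376, 346 and 360. These did not overlap, and the difference of -0.29 was not called (SE 0.11, adjusted p = 0.0826). Rheb, the GTPase that activates mTORC1, differed by -0.03 (95% interval -0.37 to 0.30) and Tsc1 by -0.22 (-0.50 to 0.07). Tsc2 differed by -0.10 (-0.37 to 0.16) and Mlst8, at 4.50 to 14.3, by -0.51 (-1.41 to 0.40). Antisense genes overlap 22.5% of the exon bases of Mlst8 and 7.20% of those of Tsc2.

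Fnip2, a partner of folliculin, had 174, 182 and 198 in WT C3aR+ and 382, 366 and 536 in APP-KI C3aR+ libraries, a difference of 1.19 (SE 0.15, adjusted p = 0.00068). Its homolog Fnip1 (0.12, 95% interval -0.14 to 0.39) and Flcn itself (-0.06, interval -0.37 to 0.24) were not called. Mitf had 96.0, 93.4 and 90.8 against 188, 138 and 188 and was higher by 0.85 (SE 0.14, adjusted p = 0.00258). Its relative Tfeb had 80.0, 90.5 and 103 against 79.2, 61.7 and 59.9, where the lowest WT library lay just above the highest APP-KI library, and the difference of -0.44 was not called (SE 0.16, adjusted p = 0.0686). Tfe3 differed by -0.03 (95% interval -0.43 to 0.37).

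Calls of 12 members, Atp6v0a1, Atp6v0a2, Atp6v0d2, Atp6v1a, Atp6v1b2, Atp6v1c1, Atp6v1g1, Atp6ap1, Rragc, Rragd, Fnip2 and Mitf, held whichever of the 6 C3aR+ libraries was left out. The count of members called higher was 19 with edgeR and 20 with DESeq2 on the reads recovered from the values, each with Atp6v0a2 as the only member called lower. At the stricter adjusted p of 0.0005, only Atp6v0d2 and Rragd remained called.

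Promoters of members were searched for the E-box TCACGTG, the core of the motif by which TFEB, TFE3 and MITF are known to bind DNA. The RefSeq table (GRCm38.p6) held the 250 bases before and 50 after the start of 32 of the 39 members, and not Atp6v0a2, Atp6v0d2, Atp6v1b2, Atp6v1c1, Atp6v1g1, Atp6v1h or Lamtor3. On either strand, TCACGTG was present in 10 of these 32 members (31.25%) and in 4.29% of all 27025 genes with a promoter. It was present in 6 of the 14 searched members called higher in APP-KI C3aR+ microglia (42.9%) and in 4 of the other 18 (22.2%: Atp6v0b, Rragb, Rheb and Fnip1). The longer palindrome TCACGTGA, which contains it on both strands, was found in 3 members and in 1.12% of all genes. The longer motif of TFEB targets known as the CLEAR element, searched here as that palindrome with a G before and a C after it, was found in 0 members and in 0.370% of all genes. The shorter CACGTG was found in the same 10 members and in 8.09% of all genes. A match describes the sequence and is not a bound site. The windows of the 6 members called higher are shown 5′ to 3′ on the gene's strand, with the matches in capitals. Flanks stop at the start in the RefSeq table, from which the distances are counted. The GRCm38 annotation used for per-kb levels begins upstream of the printed windows for Atp6v1a (44139705) and Atp6v0e (26663231).
Atp6v1a, chr16:44139354-44139421, minus strand, match from 132 bases before the start: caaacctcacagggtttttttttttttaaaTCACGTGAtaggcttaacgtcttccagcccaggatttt
Rragc, chr4:123917291-123917357, plus strand, match from 112 bases before the start: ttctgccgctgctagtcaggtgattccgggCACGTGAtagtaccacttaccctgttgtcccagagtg
Lamtor4, chr5:138255332-138255413, plus strand, matches from 120 and 105 bases before the start: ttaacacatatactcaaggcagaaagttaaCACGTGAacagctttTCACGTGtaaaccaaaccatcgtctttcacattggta
Lamtor1, chr7:101905738-101905804, plus strand, match from 69 bases before the start: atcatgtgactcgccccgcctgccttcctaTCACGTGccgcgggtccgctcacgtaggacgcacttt
Atp6v0d1, chr8:105566061-105566098, minus strand, match from 4 bases before the start: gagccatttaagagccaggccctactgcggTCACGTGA
Atp6v0e, chr17:26676368-26676405, plus strand, match just after the start: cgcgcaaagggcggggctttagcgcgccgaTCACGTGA

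Several members are alternatives for the same place in a complex. Their shares of the RNA can be read within a library, free of the scaling between libraries. Protein was not measured. Per kb of exon, Atp6v0d2 made up 0.375% ± 0.286 (SD, n = 3) of the d subunits in WT C3aR+ and 31.2% ± 16.2 in APP-KI C3aR+ libraries, where single libraries ranged from 16.0 to 48.2%. In the 14 other libraries, it made up at most 0.780% in WT, at most 0.337% in C3aRKO, 22.4 to 40.3% in APP-KI and 23.6 to 41.2% in APP-KI;C3aRKO. The RNA of Rragd rose in the same way beside that of Rragc. Rragd made up 2.56 to 3.42% of the RagC and RagD level in WT C3aR+ and 14.2 to 18.3% in APP-KI C3aR+ libraries, with 2.48 to 3.75% in WT, 14.4 to 27.7% in APP-KI, 0.738 to 3.22% in C3aRKO and 10.4 to 18.7% in APP-KI;C3aRKO. Rragc thus stayed the more abundant per kb everywhere. These shares are a description and were not tested apart from the genes' own values.

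Fnip2 made up 48.2 to 52.8% of the FNIP level per kb in WT C3aR+ and 63.8 to 72.9% in APP-KI C3aR+ libraries. It made up 47.6 to 50.1% in WT, 60.9 to 70.1% in APP-KI, 47.1 to 58.7% in C3aRKO and 59.6 to 72.5% in APP-KI;C3aRKO. In every library with the APP-KI allele, Fnip2 was therefore above Fnip1. Among the MiT/TFE factors, Mitf went from 25.2 to 30.8% in WT C3aR+ to 41.8 to 49.9% in APP-KI C3aR+ libraries and from 25.8 to 28.4% in WT to 38.8 to 44.4% in APP-KI. Tfeb, with 28.1 to 31.4% in WT C3aR+ and 17.4 to 21.5% in APP-KI C3aR+, overlapped between WT (25.5 to 28.3%) and APP-KI (22.6 to 30.4%). Of the a subunits, Tcirg1 was the most abundant per kb in each of the 6 groups (mean 52.4 to 59.4%), and Atp6v0a2 had 19.2 to 22.4% in WT C3aR+ and 11.5 to 13.8% in APP-KI C3aR+ libraries. Rraga made up at least 96.9% of the summed Rraga and Rragb level per kb in every library.

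**Figure D2:**
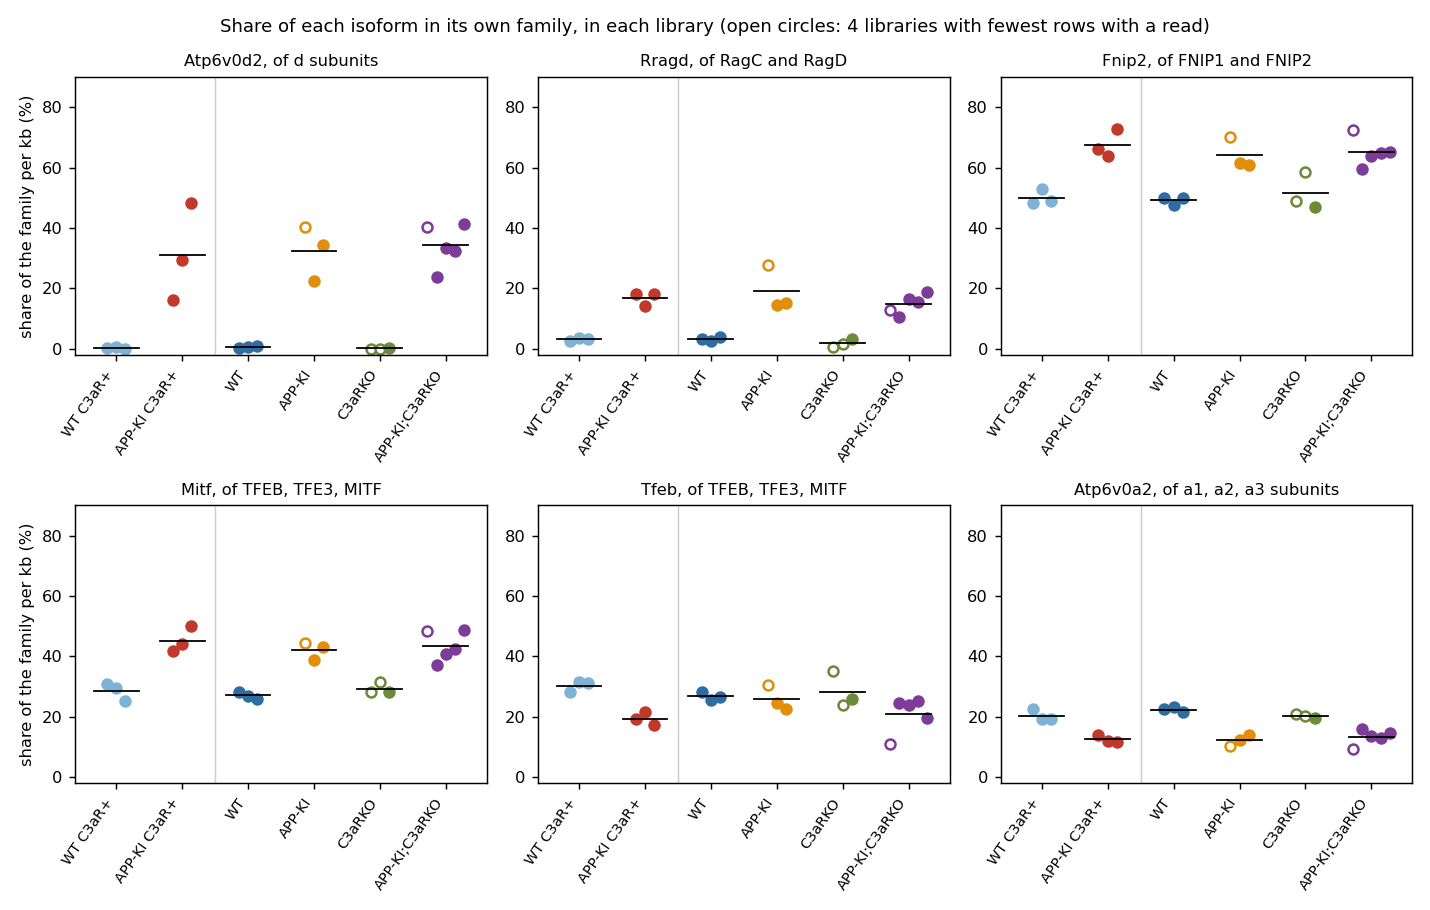
Each panel plots, per library, the share (%) of a member in the summed level per kb of its own family, with group means as lines and open circles for the 4 libraries with the fewest rows with a read. Atp6v0d2, Rragd, Fnip2 and Mitf take a larger share, and Atp6v0a2 a smaller one, in all 3 groups with the APP-KI allele, while Tfeb overlaps between WT and APP-KI.

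In all sorted microglia, 2 members were called higher in APP-KI than in WT libraries, Atp6v0d2 and Rragd, where 2.22% of all 12407 genes were, and Atp6v0a2 was called lower, where 1.93% were. Atp6v0d2 had scaled values of 0.370, 0.661 and 1.09 in WT and of 46.9, 36.4 and 85.0 in APP-KI libraries (5.24, SE 0.33, limma, adjusted p = 2.72e-07). Rragd had 4.87, 3.73 and 5.62 against 45.7, 25.7 and 33.6 (2.82, SE 0.40, adjusted p = 0.000806), and Atp6v0a2 had 293, 265 and 246 against 131, 131 and 145 (-0.98, SE 0.16, adjusted p = 0.002). The groups of all 3 genes were far apart, and their calls held whichever of the 14 libraries was left out. Within the second library series the differences were 4.95, 2.59 and -1.16, and within the third 5.53, 2.63 and -0.81. The median log2 difference was 0.03 over the members and -0.01 over all genes. At an unadjusted p under 0.05, 7 members were higher and 2 lower, against 5.95% and 6.49% of all genes.

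The same comparison held more calls without the 4 libraries with the fewest rows with a read. Then 13 members were called higher (13.2% of all 12563 genes) and 5 lower (14.7%). The 13 were Atp6v0b, Atp6v0c, Atp6v0d2, Atp6v0e, Atp6v1a, Atp6v1c1, Atp6v1f, Atp6v1g1, Lamtor1, Lamtor4, Rragd, Fnip2 and Mitf, and the 5 were Atp6v0a2, Rptor, Flcn, Tfeb and Tfe3. Apart from Atp6v0d2 and Rragd, the higher ones differed by 0.27 to 0.70, with Atp6v1a at 0.70 (SE 0.14, adjusted p = 0.00706). Without APP-KI replicate 5 as well, 8 were called higher (7.88% of all genes) and 3 lower (7.81%). That library had reads in nearly all rows, and its removal left 1 APP-KI library, whose spread is then assumed to be that of the other groups. The share of members called lower was close to that of all genes in each of these fits. Markers were counted with all 14 libraries, where 2.22% of all genes were called higher and 1.93% lower. The summed microglial markers were 28157 to 30656 in WT and 11163 to 22973 in APP-KI libraries, with 2 of 10 called lower. The border macrophage sum was 439 to 1184 in WT and 257 to 277 in APP-KI libraries, with 2 of 6 called lower, and the endothelial sum was 122 to 126 and 297 to 399, with 1 of 5 tested called higher. The separate genes behind these sums are not given for these libraries. The part of these markers in the results was not tested.

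In mice without C3ar1, the comparison of APP-KI;C3aRKO with C3aRKO microglia shares none of its libraries with the preceding ones, although the 14 libraries were fitted together. Of 38 members, 7 were called higher, where 3.96% of all genes were, and 1 lower, where 2.97% were. Beside this, the endothelial marker sum was 99.9 to 133 in C3aRKO and 206 to 450 in APP-KI;C3aRKO libraries, with 2 of 5 tested called higher. Its separate genes are not given here. The border macrophage sum was 356 to 591 and 190 to 348, with 2 of 6 called lower, and the microglial sum was 17185 to 28325 and 9549 to 25121, with 1 of 10 called lower. Their part in the members' values was not tested. Atp6v0d2 had scaled values of 0, 0 and 0.437 in C3aRKO and of 61.7, 42.7, 83.1, 77.5 and 122 in APP-KI;C3aRKO libraries, a difference of 5.84 (SE 0.30, adjusted p = 1.38e-08) whose size depends on the pseudocount, being 8.37 with 0.1. Rragd had 0.619, 1.53 and 3.75 against 25.4, 20.1, 41.8, 36.6 and 55.3 (3.53, SE 0.36, adjusted p = 2.12e-05). In both, all libraries with the APP-KI allele lay above all those without it.

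Rragc had 53.8, 63.4 and 72.8 in C3aRKO and 113, 112, 136, 130 and 156 in APP-KI;C3aRKO libraries, a difference of 0.94 (SE 0.14, adjusted p = 0.00054). Atp6v0a2 had 285, 236 and 257 against 119, 179, 141, 137 and 151 and fell by 0.83 on the log2 scale (SE 0.14, adjusted p = 0.00198). These 4 genes kept their calls whichever library was left out, while the count called higher went from 7 to 4 without C3aRKO replicate 2 or 3 or APP-KI;C3aRKO replicate 4 or 5. Atp6v1a had 49.9, 62.6 and 73.7 against 68.2, 111, 182, 158 and 215 (0.96, SE 0.20, adjusted p = 0.00856), where APP-KI;C3aRKO replicate 1 reached into the C3aRKO range and the call was lost without C3aRKO replicate 3. Atp6v1g1 had 42.8, 26.4 and 48.0 against 86.7, 55.1, 76.0, 81.8 and 85.1 (0.88, SE 0.22, adjusted p = 0.0272, lost without C3aRKO replicate 2 or 3 or APP-KI;C3aRKO replicate 4 or 5).

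The calls of Atp6v0c and Fnip2 were the weakest, each kept in 3 of the 14 fits that left out a library. Atp6v0c had 40.1, 61.3 and 82.7 against 140, 98.1, 88.0, 97.3 and 95.9 (0.79, SE 0.22, adjusted p = 0.0428), with a difference of 1.23 within the second series and 0.18 within the third. Without the 4 libraries it was 0.19 and was not called. Fnip2 had 204, 267 and 169 against 526, 256, 342, 345 and 386 (0.83, SE 0.24, adjusted p = 0.0493), and was at 1.01 and called without the 4 libraries.

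Without those 4 libraries, which leaves a single C3aRKO library whose spread is assumed to be that of the others, 16 members were called higher (13.2% of all genes) and 6 lower (18.2%). The higher ones then included Atp6v0b, Atp6v0d1, Atp6v0e, Atp6v1b2, Atp6v1c1 and Atp6v1f of the pump and Lamtor1, Lamtor2, Lamtor4 and Lamtor5 of Ragulator, at 0.35 to 0.87. The lower ones were Atp6v0a2, Tcirg1, Mtor, Rptor, Tfeb and Tfe3, at -0.80 to -0.30. Tfeb had 129, 81.5 and 86.3 in C3aRKO and 41.0, 78.7, 68.1, 71.8 and 63.0 in APP-KI;C3aRKO libraries, which did not overlap, and it was not called with all 14 libraries (-0.58, SE 0.25, adjusted p = 0.205). With all 14 libraries, an unadjusted p under 0.05 was reached by 12 members in the higher direction and 4 in the lower, against 10.1% and 10.3% of all genes. The groups did not overlap for 8 members higher and 3 lower, against 6.34% and 7.34% of all genes.

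**Figure D3:**
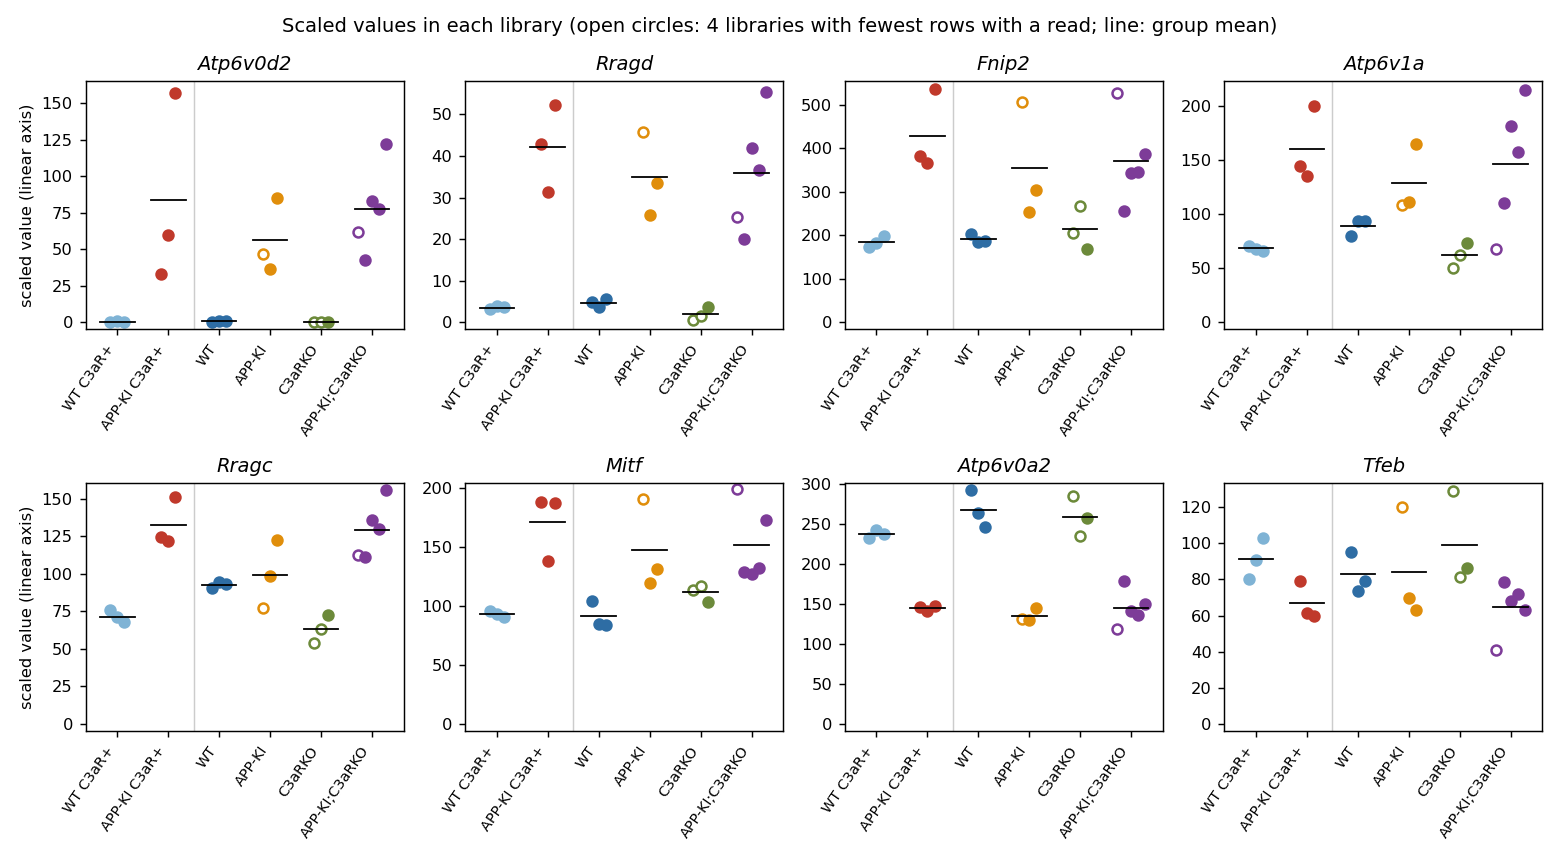
Scaled values (linear axes) of 8 members are plotted in each of the 20 libraries by group, with group means as lines and open circles for the 4 libraries with the fewest rows with a read. Atp6v0d2 and Rragd are near 0 in every library without the APP-KI allele, Atp6v0a2 is between 119 and 179 with that allele and between 232 and 293 without it, and Rragc and Atp6v1a overlap between some groups.

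**Figure D4:**
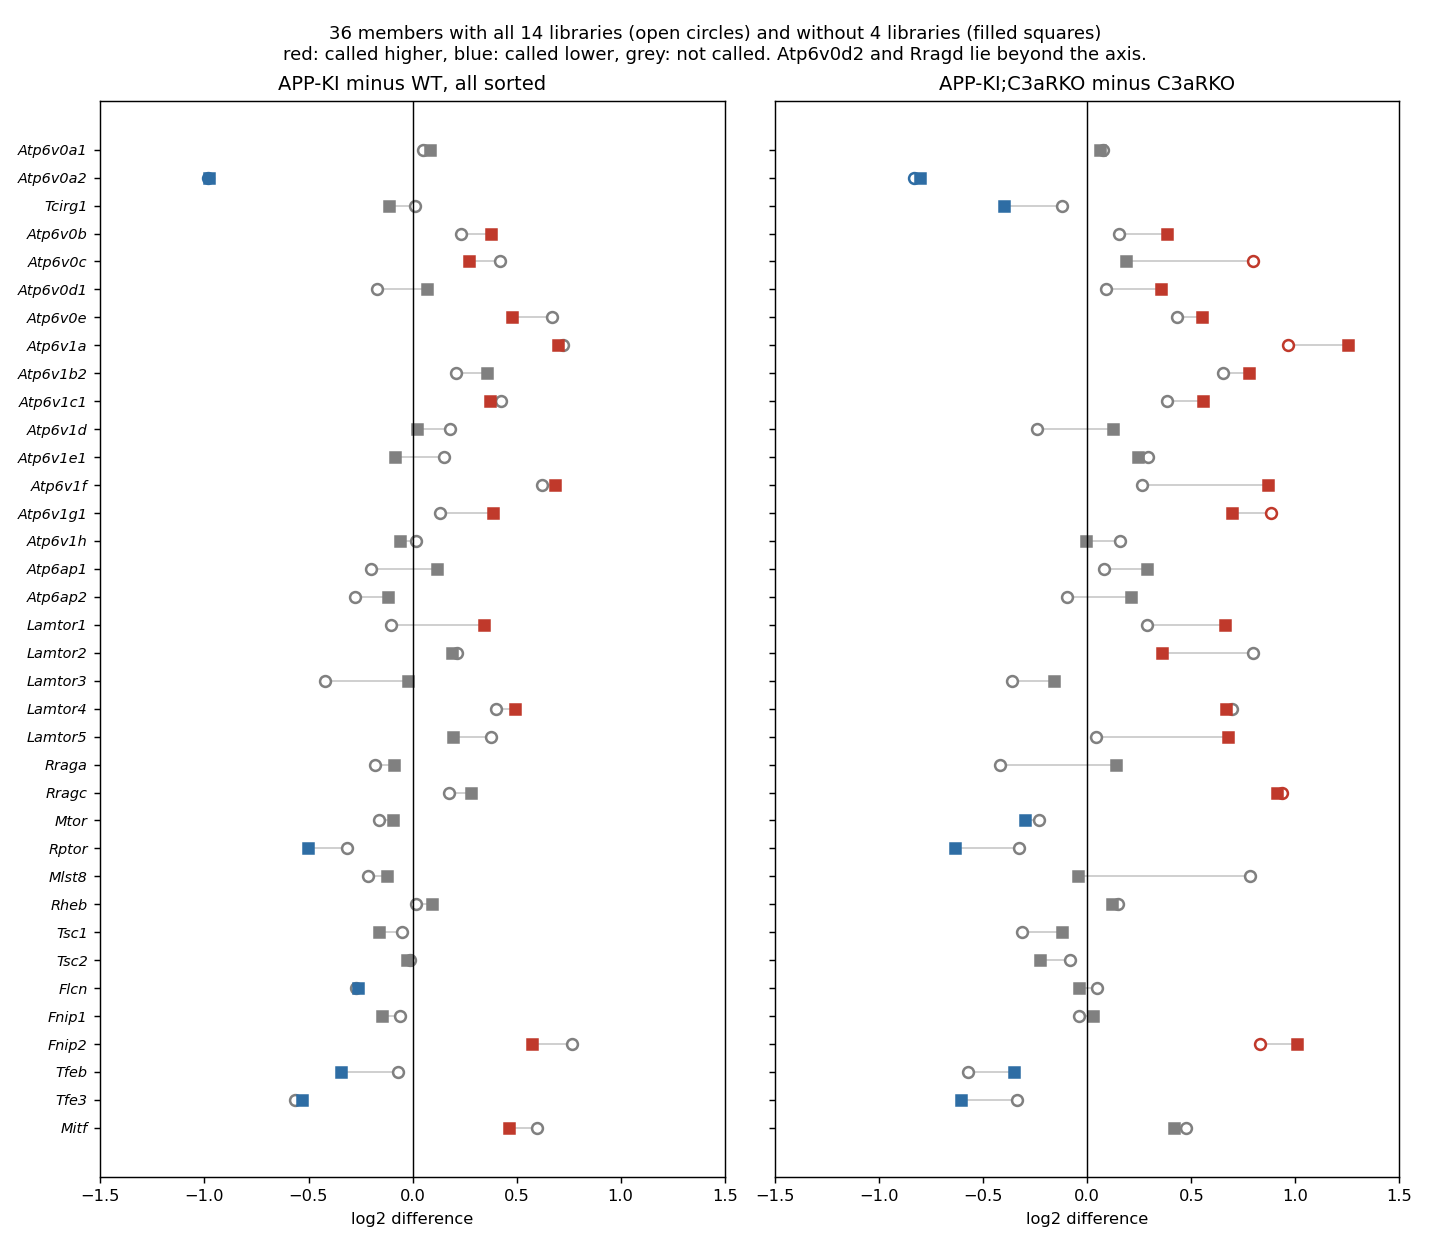
The log2 difference of 36 members is plotted for APP-KI minus WT (left) and APP-KI;C3aRKO minus C3aRKO (right) with all 14 libraries (open circles) and without the 4 libraries with the fewest rows with a read (filled squares), coloured by call. More members are called without the 4 libraries on both sides, Atp6v0a2 is called lower in all 4 fits, and Atp6v0c on the right moves from 0.79 to 0.19.

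With all 14 libraries fitted together, loss of C3ar1 gave no call among the members. Between C3aRKO and WT, 0 members were called higher (0% of all genes) and 0 lower (0.00806% of all genes) by limma, and edgeR and DESeq2 also called 0. At an unadjusted p under 0.05, 0 members were higher and 3 lower, against 0.991% and 1.78% of all genes: Rragc (-0.45, 95% interval -0.78 to -0.13), Rragd (-0.89, -1.75 to -0.02) and Atp6v1e1 (-0.44, -0.87 to -0.01). Rragc had 90.3, 94.6 and 93.1 in WT and 53.8, 63.4 and 72.8 in C3aRKO libraries, which did not overlap. Of the 38 members tested, 9 lay lower without overlap and 1 higher, against 9.31% and 9.16% of all genes. The 9 were Rragc, Atp6v1a, Atp6v1b2, Atp6v1e1, Atp6v1g1, Lamtor1, Lamtor5, Mlst8 and Flcn, and the 1 was Atp6v0a1. Without the 4 libraries, which leaves 1 C3aRKO library, 0 members were called, with Rragc at -0.42 (SE 0.12), Atp6v1e1 at -0.39 (SE 0.09) and Rragd at -0.43 (SE 0.36).

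Between APP-KI;C3aRKO and APP-KI microglia, 0 members were called higher (0% of all genes) and 0 lower (0.00806%) by limma, with 0 by edgeR and DESeq2, and Rragc alone had an unadjusted p under 0.05 (0.31, 95% interval 0.02 to 0.60). Every member's groups overlapped, where only 0.604% of all genes lay higher and 1.01% lower without overlap. The intervals were -0.36 to 0.90 for Atp6v0d2, -0.94 to 0.60 for Rragd, -0.21 to 0.40 for Atp6v0a2, -0.36 to 0.65 for Fnip2 and -0.27 to 0.48 for Mitf. Without the 4 libraries, 0 members were called, and the differences lay between -0.13 and 0.22, with Rragd at 0.17 (SE 0.27) in place of -0.17. Whether the effect of C3ar1 loss differed between APP-KI and WT mice was tested as an interaction, with 0 members called (0% of all genes) by limma, edgeR or DESeq2, and 0 by limma without the 4 libraries. At an unadjusted p under 0.05, Rragc (0.76, interval 0.31 to 1.21) and Atp6v1g1 (0.75, interval 0.01 to 1.49) were higher, against 0.895% of all genes, and 0 members lower, against 0.742%.

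**Figure D5:**
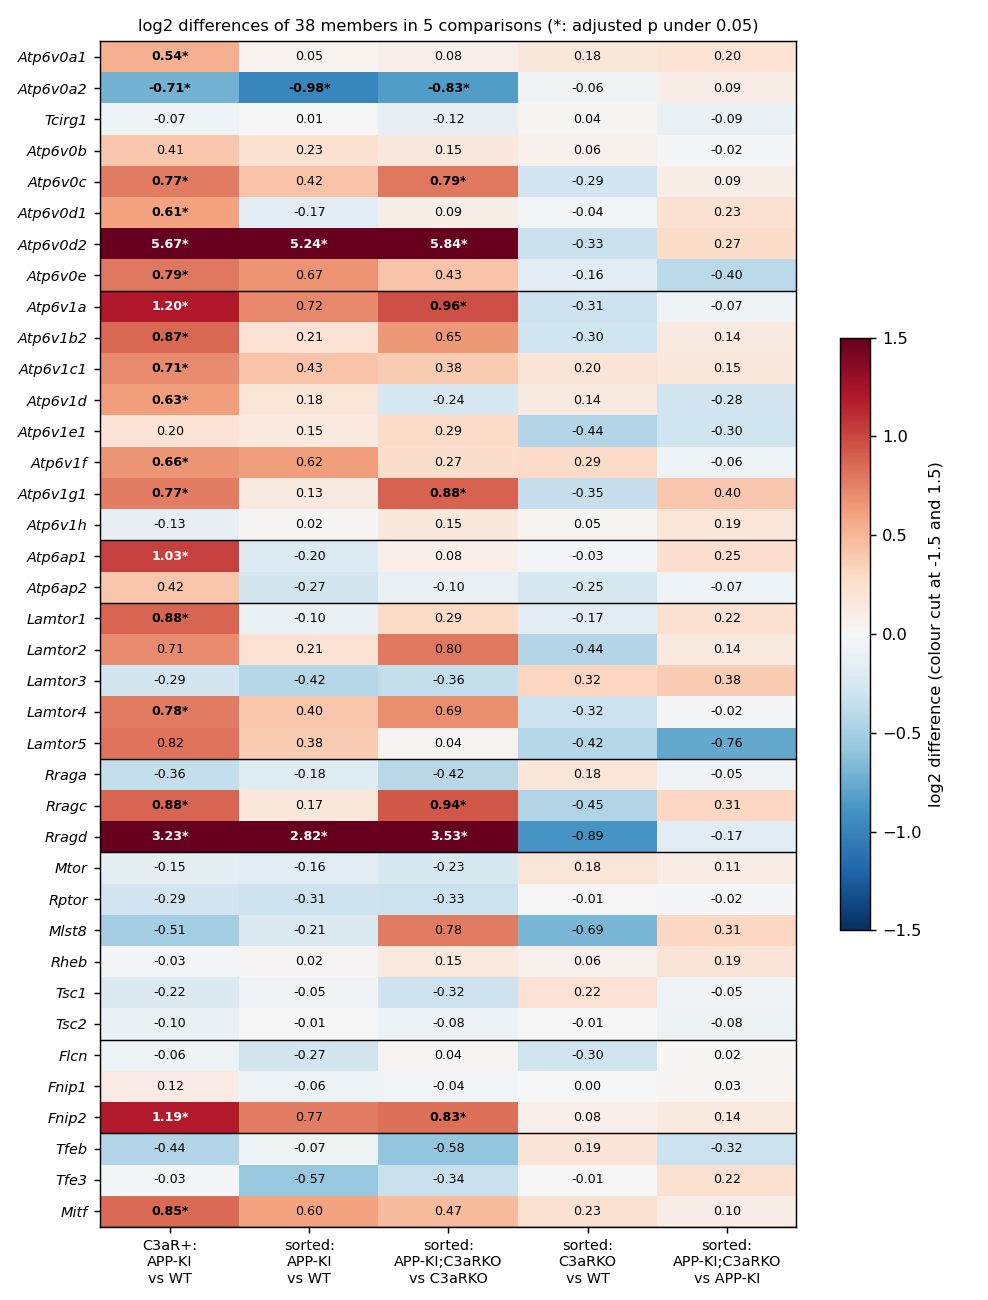
The log2 difference of each of the 38 members tested is written and coloured (colours end at -1.5 and 1.5) for 5 comparisons, with an asterisk where the adjusted p was under 0.05. Atp6v0d2, Rragd and Atp6v0a2 carry an asterisk in the 3 comparisons for the APP-KI allele, and no member does in the 2 for loss of C3ar1.

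Between the sorts, the C3aR+ libraries also differ from the others in the reporter allele, library series and read depth. These cannot be told apart. C3ar1 itself was at 37.6 to 81.2 in WT C3aR+ and at 276 to 340 in WT libraries, against the label of the sort. In APP-KI mice, 0 members were called between C3aR+ and all sorted microglia (0% of all genes) by limma, edgeR or DESeq2, and 5 were higher (1.59% of all genes) and 0 lower (3.63%) at an unadjusted p under 0.05: Atp6v0a1, Atp6v0d1, Atp6v1b2, Atp6ap1 and Rragc. The groups did not overlap for 1 member higher and 0 lower, against 1.86% and 4.21% of all genes. In WT mice, 0 were called by the same tools and only Rragc was lower at an unadjusted p under 0.05 (3.38% of all genes), with 0 higher (1%). The groups did not overlap for 1 member higher and 12 lower, against 9.74% and 13.2% of all genes. Among the 12 were members called higher in APP-KI C3aR+ than in WT C3aR+ libraries. Atp6ap1 had 134 to 163 in WT C3aR+ and 214 to 241 in WT libraries, and Atp6v1b2 had 96.6 to 105 and 131 to 136. Rragc had 67.6 to 75.8 and 90.3 to 94.6, and Lamtor1 had 36.3 to 52.4 and 60.1 to 73.5. The part of these low WT C3aR+ values in the C3aR+ comparison was not tested. The effect of APP-KI was not shown to differ between the sorts, since 0 members were called by limma or edgeR for that difference and DESeq2 called only Atp6v0a1. At an unadjusted p under 0.05, 8 members, against 6.64% of all genes, had a more positive effect in C3aR+ microglia and 0, against 5.12%, a more negative one. Atp6ap1 (1.47, 95% interval 0.48 to 2.45) and Rragc (0.80, 0.32 to 1.28) had the lowest p, while the intervals of Atp6v0d2 (-0.83 to 2.18), Rragd (-0.26 to 1.46) and Atp6v0a2 (-0.06 to 0.59) held 0.

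Other genes of the pathway were counted by lists. Of 26 lysosomal and autophagy genes that TFEB is known to regulate, 16 were called higher in APP-KI C3aR+ microglia and 1 lower, against 13% and 9.71% of all genes. Their median log2 difference was 0.66. Gla, which encodes alpha-galactosidase A, went from a mean of 11.2 to 47.2 (1.98, SE 0.25) and Ctsd, the protease cathepsin D, from 2909 to 11217 (1.93, SE 0.22). In all sorted microglia, only Gla of these 26 was called between APP-KI and WT (1.78, SE 0.42), where 2.22% of all genes were called higher. Gla and Ctsb, cathepsin B, were called between APP-KI;C3aRKO and C3aRKO (1.62, SE 0.38, and 1.39, SE 0.37), where 3.96% were. These counts used all 14 libraries. Without the 4 libraries with the fewest rows with a read, 13.2% of all genes were called higher between APP-KI and WT, but the 26 were not counted there.

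Calls in the other lists are to be read against the 13% of all genes called higher and the 9.71% called lower in APP-KI C3aR+ microglia. Of 12 genes for V-ATPase assembly and regulation, 0 were called higher and 2 lower in APP-KI C3aR+ microglia (Rogdi, -0.74, and Slc9a9, -0.49). Of 17 genes of amino acid sensing upstream of the Rags, 1 was called higher (Castor1, an arginine sensor, 1.04) and 2 lower, the larger being Sesn1, a sestrin, at -0.63. Of 11 partners and substrates of mTORC1, only Ddit4 was called, an inhibitor of mTORC1 that acts through TSC, whose mean fell from 59.2 to 14 (-1.84, SE 0.40). Between APP-KI;C3aRKO and C3aRKO it fell from 71.8 to 15.8 (-2.21, SE 0.61, adjusted p = 0.0428). Ddit4 is also induced by stress, and what its change owes to cell isolation was not tested. Of 8 tissue-restricted V-ATPase isoforms, 3 reached the level for a test and 0 were called, and Tfec, the remaining member of the MiT/TFE family, did not reach it in the comparisons for the APP-KI allele.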

How the data were processed

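Sorted microglia of 6 groups gave 20 RNA-seq libraries. Per the study's methods and the submitters' processing notes, the authors trimmed reads with cutadapt, aligned them to mm10 with TopHat, counted them with featureCounts and tested them with DESeq2. The strand setting of the counting is not given in the sources used here. Although headed FPKM, what the authors deposited is a depth-normalized signal: reads relative to that library's 75th percentile count, without correction for length. In each of the 20 libraries, 100% of values came back as whole reads (tolerance 0.05 reads). Rows of 10 repeated symbols were summed, which left 21315 symbols.

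The members, the other gene lists and the tests were chosen with earlier results of these data known. All 39 members are named, and of other lists at most the 2 called genes with the largest change per comparison. The signal was multiplied by 35.2, log2(value + 1) was tested with limma 3.58.1 (R 4.3.3, with a trend) over genes with a mean of at least 1, and p-values were adjusted by Benjamini-Hochberg over all genes tested. The 6 C3aR+ libraries were fitted alone. The other 14 were fitted together with the library series (the second or the third, from the library numbers) as a term, and 12 WT and APP-KI libraries of both sorts without one. The fits were tested on simulated data. Alternatives were a pseudocount of 0.1, no filter or a mean of at least 5, median ratio scaling, no trend, edgeR 4.0.16 and DESeq2 1.42.0 on recovered reads, an adjusted p under 0.0005, each library left out, no series term, only the 2 groups compared and a replicate block. Fits without the 4 libraries with the fewest rows with a read, or also without the one with the most, and a block for APP-KI;C3aRKO against APP-KI were added after seeing the data. No 2 libraries held identical values. The deviations of same-numbered libraries from their group means correlated at -0.04 to 0.25, and those of differently numbered ones at -0.23 to 0.20. The numbers were not taken to pair libraries. These correlations were not computed for APP-KI;C3aRKO with APP-KI. Per-kb levels used exon lengths of the GRCm38 annotation. Figures were drawn with matplotlib 3.10.9 in Python 3.11.15.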

Additional observations from a re-analysis of the deposited data

Results flagged for a closer look

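In groups of 4 to 10 libraries, a library was singled out where its gap to the nearest other, divided by the group's range, passed Dixon's 95% value (0.71 for 5 libraries). Only the 5 APP-KI;C3aRKO libraries could be tested in this way, over 39 members. Chance marks about 1 in 20 groups, and 10 of 39 were marked, all through APP-KI;C3aRKO replicate 1, which had reads in the fewest rows of all libraries (12387). The members share this library, so the 10 are not independent.

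It lay above the other 4 libraries for Atp6v0c (scaled value 140.4, others 88.0 to 98.1), Atp6v1h (74.0, others 39.3 to 42.6), Mtor (168, others 118 to 132), Mlst8 (25.6, others 9.66 to 10.5) and Tsc1 (119, others 96.3 to 102). It lay below them for Atp6v0e (23.8, others 59.7 to 70.9), Atp6v1d (27.9, others 56.2 to 66.7), Lamtor1 (28.8, others 78.0 to 94.7), Lamtor5 (0, others 10.6 to 14.4) and Flcn (118, others 171 to 184). Of these 10 members, Atp6v0c alone was called between APP-KI;C3aRKO and C3aRKO, at 0.79 on the log2 scale with this library and at 0.19, not called, without the 4 libraries that had the fewest rows with a read.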

How the results depend on the processing

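No member's called difference changed sign in any alternative, and 475 of the values recomputed for called members kept their side of the threshold while 107 lost it. For C3aR+ microglia, 18 members higher and 1 lower became 2 and 0 at an adjusted p of 0.0005, 12 and 1 with no trend, and 13 to 17 higher and 1 to 2 lower with each library left out (2 lower without APP-KI C3aR+ replicate 1). For sorted APP-KI against WT, 2 higher and 1 lower became 5 and 2 with DESeq2, 1 and 0 at 0.0005, 13 and 5 without the 4 libraries with the fewest rows with a read, 8 and 3 without APP-KI replicate 5 as well, and 2 to 3 higher and 1 to 2 lower with each library left out (2 lower without C3aRKO replicate 1 or 3 or APP-KI;C3aRKO replicate 1). For APP-KI;C3aRKO against C3aRKO, 7 higher and 1 lower became 4 higher with no filter, 4 with no trend, 3 with only the 2 groups compared, 2 and 0 at 0.0005, 16 and 6 without the 4 libraries, 16 and 7 without the fifth as well, and 4 to 8 higher and 1 to 2 lower with each library left out (2 lower without APP-KI;C3aRKO replicate 1). DESeq2 called 1 member for the difference between sorts, where limma called 0. The causes were not tested.

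With the replicate number as a block, C3aR+ microglia had 15 members higher and 1 lower, sorted APP-KI against WT 3 and 1, APP-KI;C3aRKO against C3aRKO 2 and 0, and APP-KI;C3aRKO against APP-KI 4 higher (Atp6ap1, Atp6ap2, Atp6v0d2 and Lamtor1) and 0 lower, the last from 4 libraries and chosen after seeing the data. Over all genes, that last block fit called 287 higher and 172 lower, against 0 and 1 without it. In that fit, both APP-KI libraries (replicates 4 and 5) came from the second library series and both APP-KI;C3aRKO libraries from the third. Genotype and series therefore cannot be told apart there. The APP-KI libraries in it were also those with reads in 13250 and in 21219 rows. The correlations of same-numbered libraries were -0.01 to 0.04 in C3aR+ microglia, 0.09 to 0.25 in sorted WT and APP-KI, and -0.04 to 0.24 in the C3aRKO groups.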
